A study of Mus musculus with 3 samples.

Results

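The 10 genes described here encode laminins and the integrins that bind them: the laminin chains Lama2, Lama4, Lama5, Lamb1, Lamb2 and Lamc1, and the integrin subunits Itga3, Itga6, Itga7 and Itgb1. They were chosen by name, with earlier results of these data known, out of 35569 genes listed in the libraries. The 5 listed transcripts of Itga7 were taken with them. RNA-seq was performed on 3 myoblast lines, numbered 66, 67 and 72, which form 1 condition (n = 3). The lines were derived from satellite cells of intraspecies mouse chimeras made with iPSCs that carry Dmd-mdx and Pax7-nGFP. In these iPSCs a CRISPR/Cas9 edit had restored the reading frame of dystrophin by exon skipping. In the reporter, Pax7, the satellite cell transcription factor, drives a nuclear GFP. All 3 lines carry the edit, the mdx background and the reporter, and no line of another genotype was analysed here, so no value below is a difference between conditions. The iPSCs came from embryonic fibroblasts, and the labels do not give the edited clone behind each line. In the study, host blastocysts carried Rosa26-lsl-DTA, a toxin allele that removes host satellite cells where a Pax7-driven Cre is present and, for its inducible form, after tamoxifen. The labels do not give the tamoxifen treatment, the host or the age of the animal behind each line. The paper reports the sequenced myoblasts in its section on hosts with the inducible Cre, and calls them FACS-purified. Cells were also sorted before culture, in part of the study with an antibody to the product of Itga7 itself. Which sort gave each line is not in the labels, so the level of Itga7 is a description of sorted cells.

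Laminins are cross-shaped proteins of the basement membrane, each built from 1 alpha, 1 beta and 1 gamma chain, and they assemble into the sheet that surrounds every muscle fiber and its satellite cells. Integrins are receptors made of 1 alpha and 1 beta subunit. Itga3, Itga6 and Itga7 encode the alpha subunits that bind laminin, and all of them pair with the beta1 subunit encoded by Itgb1. In skeletal muscle, the laminin with the alpha2, beta1 and gamma1 chains is the main form around mature fibers, and integrin alpha7beta1 is, beside dystroglycan, its main receptor. Mutations of human LAMA2 and ITGA7 cause congenital muscular dystrophies.

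The integrin subunits exist in alternative forms that differ by whole exons. In the alpha subunits a cytoplasmic A exon may be kept, which gives the A form, or skipped, which gives the B form with another tail. In Itga7 the extracellular exons X1 and X2 are used in a mutually exclusive way and lie in the ligand-binding head. Itgb1 has a D exon that replaces the common tail. The A form of Itga7 and the D form of Itgb1 are known from differentiated muscle, and the B form of Itga7 and the common form of Itgb1 from proliferating myoblasts. The sequences of these exons are shown because the transcript estimates below turn on which of them a transcript holds. They are read 5′ to 3′ from the GENCODE release M21 transcripts, with the coding bases of the exon in capitals and up to 15 bases of the neighbouring exons in lower case. Coordinates are on GRCm38, and all of these genes but Itga3 lie on the plus strand.
Itga7 X1 (chr10:128941445-128941576): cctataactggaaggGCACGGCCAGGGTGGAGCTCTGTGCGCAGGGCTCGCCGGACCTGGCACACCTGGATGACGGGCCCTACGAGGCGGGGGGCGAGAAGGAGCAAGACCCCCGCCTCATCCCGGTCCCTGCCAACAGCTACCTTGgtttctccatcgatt
Itga7 X2 (chr10:128941822-128941941): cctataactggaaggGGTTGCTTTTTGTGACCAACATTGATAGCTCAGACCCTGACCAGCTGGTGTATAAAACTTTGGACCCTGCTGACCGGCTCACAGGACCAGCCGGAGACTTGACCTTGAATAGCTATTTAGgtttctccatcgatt
Itga7 A (chr10:128956611-128956723): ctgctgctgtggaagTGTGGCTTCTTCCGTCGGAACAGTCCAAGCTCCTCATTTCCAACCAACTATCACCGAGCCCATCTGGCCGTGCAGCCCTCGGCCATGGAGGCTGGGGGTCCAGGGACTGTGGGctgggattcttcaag
Itga7 B, the junction made when the A exon is skipped: ctgctgctgtggaagctgggattcttcaag
Itga6 A (chr2:71853534-71853663): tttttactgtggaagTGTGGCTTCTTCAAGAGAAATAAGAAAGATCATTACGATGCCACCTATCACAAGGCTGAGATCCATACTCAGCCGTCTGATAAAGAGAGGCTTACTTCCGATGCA
Itga3 A (chr11:95046449-95046590): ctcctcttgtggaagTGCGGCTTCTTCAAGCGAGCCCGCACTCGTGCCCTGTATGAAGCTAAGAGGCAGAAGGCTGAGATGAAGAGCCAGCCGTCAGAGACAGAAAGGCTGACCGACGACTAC
Itgb1 D (chr8:128726983-128727063): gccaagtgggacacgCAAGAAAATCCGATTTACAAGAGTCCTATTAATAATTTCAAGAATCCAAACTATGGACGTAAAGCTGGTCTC
The X1 exon has 132 bases and the X2 exon 120, and both are flanked by the same bases. The A exons of Itga7, Itga6 and Itga3 have 113, 130 and 142 bases, of which 113, 105 and 108 are coding, and the D exon of Itgb1 has 81, of which 72 are coding. Over their first 12 bases, the 3 A exons have the same base at 11 positions (91.7%). Past that start they differ more, and over the coding parts the Itga6 and Itga3 A exons were identical at 72 of 118 aligned positions (61.0%), against 71 of 126 (56.3%) for Itga7 and Itga6.

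Stranded libraries of poly-A RNA held between 66972426 and 73274315 estimated counts, and gene levels are given as TPM, in which counts are divided by the effective length of each transcript and scaled to 1000000 a library. The labelled cell type was checked against its markers. All 5 myoblast markers (Pax7, Myf5, Myod1, Des, Cdh15) had at least 10 TPM in every line, with a summed level between 1520 and 1670 TPM. All 6 endothelial markers were below 1 TPM in every line (summed level 0.781 to 1.81 TPM). No Schwann marker of 5 and no immune marker of 4 reached 10 TPM (7.93 to 11.1 TPM and 3.10 to 4.55 TPM), with the immune marker Cd52 at 0 counts. Of 8 fibroblast markers, Col3a1 alone had at least 10 TPM in every line, Col1a2 had 7.47, 28.3 and 37.0 TPM, 5 were below 1 TPM, Lum and Dpt had 0 counts, and the sum was 157, 239 and 311 TPM in lines 66, 67 and 72. Of 5 pericyte and smooth muscle markers, Rgs5 alone reached 10 TPM and the sum was 357, 143 and 174 TPM. In bulk RNA, fewer cells of a type and less RNA per cell cannot be told apart. Genes of chromosomes 10 and 11 stood apart in line 66, with a median log2 ratio of 0.28 and 0.32 to the mean of lines 67 and 72, after subtraction of the median over all genes, and 4 of the 10 genes lie there (Itga7, Lama2 and Lama4 on chromosome 10, Itga3 on chromosome 11).

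Of the 10 genes, 9 had at least 10 TPM in every line, and the exception was Lama4. The median of log2(TPM + 1) over the 10 genes was 5.62, 5.43 and 5.28 in lines 66, 67 and 72 (5.44 ± 0.17, SD, n = 3), where the median over all 25493 detected genes was 0.89 ± 0.03, and 8046 of those genes had at least 10 TPM in every line. The integrin members summed to 934 ± 29.1 TPM and the laminin members to 258 ± 17.0 TPM (SD, n = 3). The summed receptors were thus higher than the summed ligand chains in each library. Gene by gene this did not hold, with Lamb1 above Itga3 in every line. Ordered by mean TPM, the genes ran Itgb1, Itga7, Itga6, Lamb1, Itga3, Lamb2, Lamc1, Lama5, Lama2 and Lama4. Of the 9 neighbouring pairs in this order, 5 had values that did not overlap over the lines: Itgb1 above Itga7, Itga7 above Itga6, Itga6 above Lamb1, Lamb1 above Itga3, and Lama2 above Lama4. The 5 genes from Itga3 to Lama2 overlapped with their neighbours, and their order is not resolved. An exact sign-flip test over 3 lines cannot give a two-sided p below 0.25, so the order is given without a test.

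**Figure D1:**
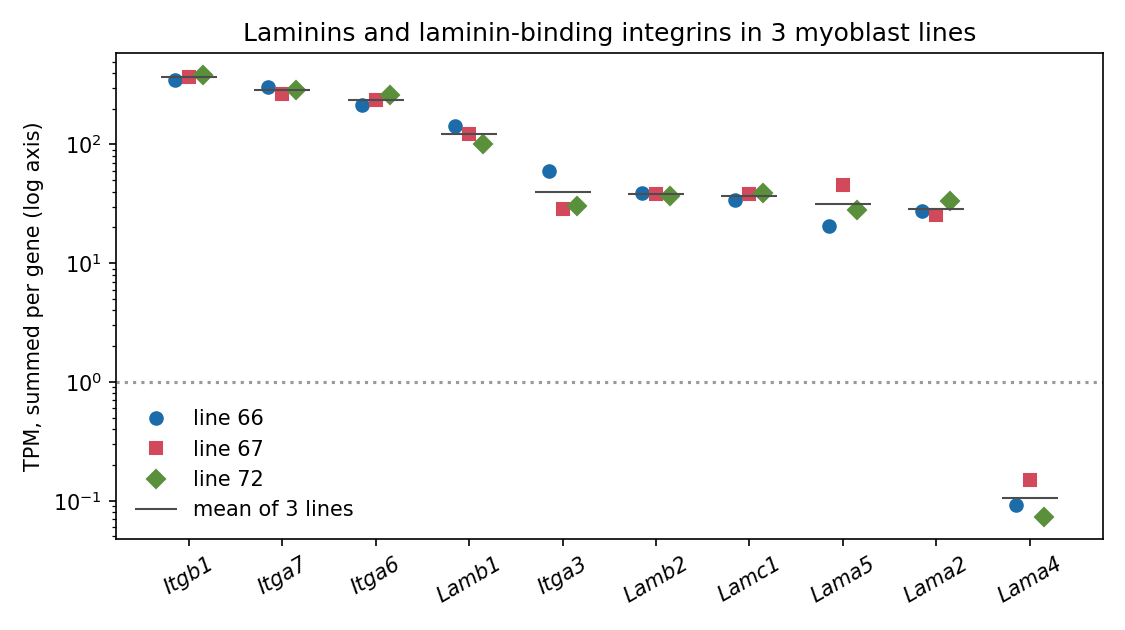
TPM summed per gene (log axis) for the 10 genes, ordered by mean, with 1 symbol per line and a bar at the mean of the 3 lines; the dotted line is at 1 TPM. Itgb1, Itga7 and Itga6 sit at 217 TPM or higher in every line, Lama4 stays below 1 TPM, and Itga3 and Lama5 are the genes whose lines lie farthest apart.

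Itgb1, the common beta subunit (chromosome 8, 128685654 to 128733200), was the highest of the 10 genes. It had 349.6, 373 and 384 TPM in lines 66, 67 and 72 (369 ± 17.6, SD, n = 3), above 98.5% of the detected genes. The lines lay close together, with 1.10-fold between the highest and the lowest. Its estimated counts were 52582, 49887 and 52153.

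Itga7, the alpha subunit that muscle uses to bind laminin (chromosome 10, 128933818 to 128958282), had 307, 267 and 289.5 TPM (288 ± 20.5, SD, n = 3) and ranked above 98.0% of detected genes. Line 66 was the highest and line 67 the lowest, 1.15-fold apart. On the log2 scale line 66 stood 0.20 above the other lines, where the genes of chromosome 10 had a median of 0.28 in that line. Relative to that median Itga7 was therefore 0.07 lower, not higher, in line 66.

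Itga6 encodes an alpha subunit that can pair with beta1 or with the beta4 subunit of epithelial hemidesmosomes (chromosome 2, 71745616 to 71858416). Its levels were 217, 238 and 259.5 TPM (238 ± 21.3, SD, n = 3), with line 72 the highest and 1.196-fold between the ends. Itga7 was above Itga6 in every line, by 1.42-fold in line 66, 1.12-fold in line 67 and 1.12-fold in line 72. The gap depended on which transcripts were summed. From complete coding transcripts alone, Itga6 had 113 ± 10.6 TPM against 221 ± 16.2 TPM for Itga7 (SD, n = 3), a ratio of 1.97 ± 0.29.

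Itga3, the remaining laminin-binding alpha subunit and the one best known from epithelia such as kidney and skin (chromosome 11, minus strand, 95044474 to 95076801), had 59.8, 28.5 and 30.5 TPM (39.6 ± 17.5, SD, n = 3). Line 66 alone was high, and lines 67 and 72 differed by 1.07-fold, lines 66 and 72 by 1.96-fold. The highest line was 2.10-fold above the lowest, with 13552 estimated counts in line 66 against 6125 and 6441. Over 2-fold between the highest and the lowest line was found for 2.47% of the 8425 genes whose mean reached 10 TPM, and for 2 of the 9 genes described here that passed this filter, Itga3 and Lama5. Other call rules gave backgrounds of 7.17% at a mean of 1 TPM, 26% with no filter, 9.76% at 1.5-fold, 2.31% with TMM, 2.33% with DESeq2 size factors, 2.34% relative to the chromosome median, 2.66% with protein-coding and 2.75% with complete coding transcripts, 2.32% with counts per kilobase, and 1.09%, 1.47% and 1.36% without line 66, 67 or 72. With 1 library per line, neither difference has a replicate check. The log2 ratio of line 66 to the other lines was 1.05 for Itga3 and 0.32 for the median gene of chromosome 11, so 0.73 remained beyond the chromosome. After each line was divided by the median deviation of its chromosome's genes from their mean over the 3 lines, the highest line was 1.66-fold above the lowest and Itga3 no longer passed 2-fold. The pericyte marker Rgs5 was also highest in line 66 (356, 137 and 172 TPM), as was the sum of the pericyte list (357, 143 and 174 TPM), while Cspg4 of that list was lowest in line 66 (0.813, 5.24 and 1.33 TPM) and the defining markers Pdgfrb, Myh11 and Kcnj8 were below 1 TPM in every line. The part of such cells in the level of Itga3 was not tested.

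Together, the alpha subunits Itga3, Itga6 and Itga7 summed to 584, 533 and 579.5 TPM, or 1.67, 1.43 and 1.51 times the level of Itgb1 (1.54 ± 0.12, SD, n = 3). From complete coding transcripts the ratio was 1.15, 0.97 and 1.04 (1.05 ± 0.09), and line 67 then had slightly more Itgb1 than alpha subunits. From counts per kilobase of the longest complete coding transcript it was 1.81, 1.57 and 1.68 (1.69 ± 0.12). The size of the excess thus depended on which transcripts were summed and how length was treated. Of the alpha subunit TPM, Itga7 took 50.9 ± 1.52%, Itga6 42.2 ± 4.37% and Itga3 6.95 ± 2.85% (SD, n = 3). Itga3 took 10.2% in line 66, against 5.35% and 5.26% in lines 67 and 72.

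The laminin chains were read next. Lama2, the alpha chain of mature muscle laminin (chromosome 10, minus strand, 26980036 to 27619758), had 27.7, 25.6 and 33.2 TPM (28.8 ± 3.93, SD, n = 3). The lines were 1.30-fold apart, with line 72 the highest. In line 66, where chromosome 10 genes had a median log2 ratio of 0.28, Lama2 was at -0.02, and in line 72 it was at 0.25 where the median was -0.18. Its difference between lines 66 and 72 thus runs against that of its chromosome.

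Lama5, the alpha chain of many embryonic, epithelial and vascular basement membranes (chromosome 2, minus strand, 180176373 to 180225859), had 20.8, 45.6 and 28.3 TPM (31.6 ± 12.7, SD, n = 3). Here line 67 was the high one, and 2.196-fold lay between it and line 66. Without line 66 the gap was 1.61-fold, and without line 67 it was 1.37-fold. The estimated counts were 8293, 14596 and 9822. The log2 ratio of line 67 to the other lines was 0.88, and the median over chromosome 2 in that line was 0.01, so 0.87 of it remained relative to the chromosome. It was below 2-fold from the complete coding transcript Lama5-201 alone (1.89-fold), and from TMM-scaled counts over all its transcripts (1.92-fold). Of the pericyte list, Cspg4 was also highest in line 67, while Rgs5 and the sum of the list were lowest there, and their part in the level of Lama5 was not tested.

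The order of Lama2 and Lama5 differed between lines. Lama2 was above Lama5 by 1.34-fold in line 66 and 1.17-fold in line 72, and stood at 0.561 of its level in line 67. Of the TPM of the 5 laminin alpha chain genes, Lama2 took 57.0%, 35.8% and 53.8% in lines 66, 67 and 72 and Lama5 42.7%, 63.8% and 45.9%. The same order in each line was seen from complete coding transcripts, with ratios of 1.58, 0.771 and 1.503.

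Lama4, an alpha chain of endothelial and fat cell basement membranes (chromosome 10, 38965515 to 39110188), was the one member near the limit of detection. It had 20, 15 and 19 estimated counts in lines 66, 67 and 72, which correspond to 0.0928, 0.150 and 0.0729 TPM. These counts are above the 3 that a count of 0 would allow, counting error alone considered. Line 67 was the highest by TPM but the lowest by counts. From the complete coding transcript Lama4-201 alone, the levels were 0.0586, 0.0466 and 0.0729 TPM, with line 67 the lowest. In the same libraries the 6 endothelial markers were below 1 TPM.

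Lamb1, a beta chain shared by the mature muscle laminin and many others (chromosome 12, 31265234 to 31329644), was the highest laminin gene, with 143, 122 and 101 TPM (122 ± 20.8, SD, n = 3). Line 66 was the highest and line 72 the lowest, 1.41-fold apart. Relative to all genes the log2 ratios were 0.41 in line 66 and -0.44 in line 72, on a chromosome whose medians were -0.03 and 0.03. The sum of the pericyte list was also highest in line 66, but lowest in line 67. The summed fibroblast markers ran the other way from Lamb1, lowest in line 66 and highest in line 72. The part of either in the level of Lamb1 was not tested. Lamb2, the beta chain of the neuromuscular junction and the kidney filter (chromosome 9, 108479736 to 108490530), had 39.0, 38.5 and 36.7 TPM (38.1 ± 1.21, SD, n = 3). On TPM it was the least variable of the 10 genes, and 89.6% of the 8425 genes had a wider range between lines. With TMM-scaled counts Itgb1 varied less (1.03-fold against 1.07-fold). Lamb1 was 3.66, 3.17 and 2.75 times as high as Lamb2 (3.19 ± 0.45), and 6.05, 5.07 and 3.92 times from complete coding transcripts (5.01 ± 1.07).

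Lamc1, the gamma chain of nearly all muscle laminins (chromosome 1, minus strand, 153218922 to 153332786), had 33.8, 38.6 and 39.0 TPM (37.2 ± 2.90, SD, n = 3). Set against Lamc1, the RNA of the beta chains was in excess. Lamb1 and Lamb2 together were 5.37, 4.16 and 3.53 times as high as Lamc1 (4.35 ± 0.94, SD, n = 3), and the 3 alpha chain genes together were 1.44, 1.84 and 1.58 times as high (1.62 ± 0.21). The ratio of these alpha chains to Lamc1 was above 1 and that of these beta chains to Lamc1 above 3 in each line, also from complete coding transcripts (1.40 ± 0.12 and 4.86 ± 1.11).

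**Figure D2:**
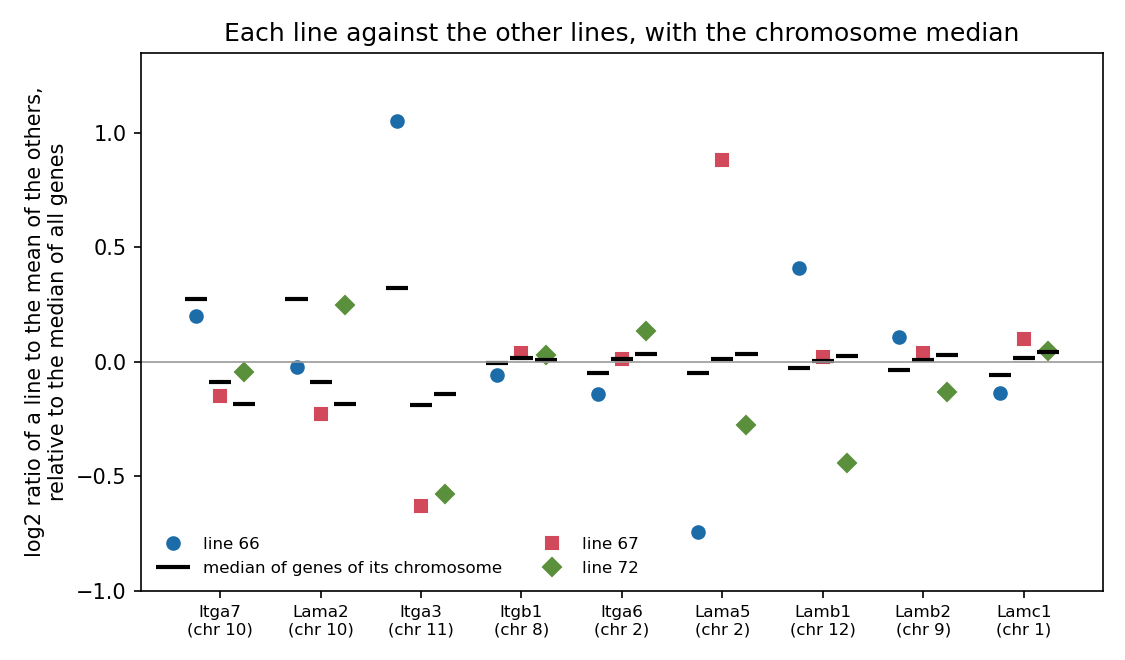
For the 9 genes whose mean reached 10 TPM, the log2 ratio of each line to the average of the remaining lines, less the median over all genes (symbols), beside the median of the genes of the same chromosome in that line (black bars). Itga3 in line 66 (1.05) and Lama5 in line 67 (0.88) lie highest; for Itga7 the symbol of line 66 (0.20) sits just below its chromosome bar (0.28).

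The 5 transcripts of Itga7 were then read one by one. Itga7-201, which holds X2 and skips the A exon, had 188, 169.5 and 174 TPM (177 ± 9.77, SD, n = 3). This transcript made up 61.3%, 63.6% and 60.2% of the TPM of the gene. Itga7-202, which differs from it by holding X1, had 47.4, 34.2 and 49.4 TPM (43.7 ± 8.25), or 15.4%, 12.8% and 17.1% of the gene. Both encode the B form, and line 67 was the lowest for each. Itga7-203, a transcript of 933 bases with 330 bases of retained intron and no annotated protein, had 51.8, 41.6 and 41.7 TPM (45.0 ± 5.85). It was as high as Itga7-202 by TPM but rested on far fewer estimated counts (2255, 1678 and 1723, against 11069, 7405 and 10921). Itga7-204, a partial coding transcript of 984 bases that holds the A exon, had 13.1, 14.99 and 17.5 TPM (15.2 ± 2.22), from 687, 738 and 888 estimated counts. Itga7-205, an unspliced transcript of 3843 bases, had 6.73, 6.18 and 6.52 TPM.

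**Figure D3:**
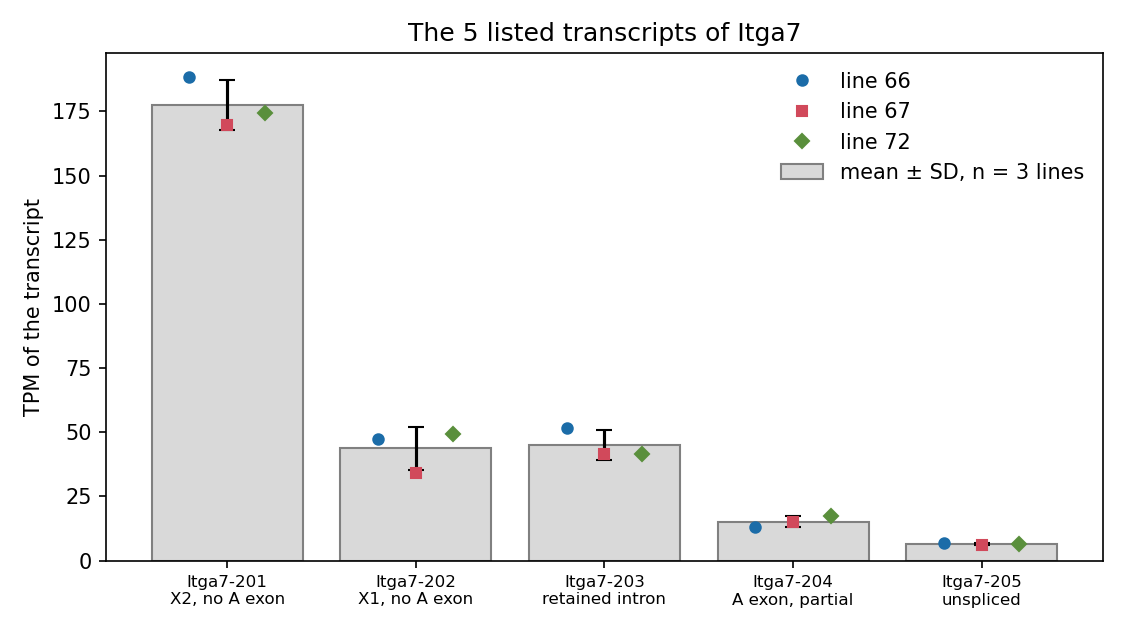
TPM of the 5 listed transcripts of Itga7, with bars for the mean ± SD of the 3 lines and 1 symbol per line. The X2 transcript Itga7-201 (169.5 to 188 TPM) is above the X1 transcript Itga7-202 (34.2 to 49.4 TPM) in every line, and the A exon transcript stays at 17.5 TPM or less.

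Of the transcripts that tell X1 from X2, those with X2 took 79.9%, 83.2% and 77.9% of the TPM (80.3 ± 2.66%, SD, n = 3). X2 was the larger share in each line. The share was 80.0 ± 2.69% from estimated counts. For the tail, the A exon was held by 5.24%, 6.85% and 7.25% of the TPM of the transcripts that hold or skip it (6.45 ± 1.06%), with line 66 the lowest. That share rests on the A exon itself, since only 14.9% of the 31-base words of Itga7-204 occur in no other listed transcript. From estimated counts, which are not corrected for the short length of Itga7-204, it was 1.57 ± 0.28%.

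The 4 integrin subunits differed in how much of the alternative exon they held. In Itga3 nearly all the informative TPM held the A exon, with 98.1%, 98.9% and 96.4% in lines 66, 67 and 72 (97.8 ± 1.25%, SD, n = 3). The B form, Itga3-203, had 0.937, 0.275 and 0.890 TPM. The share of the A form was as high in line 66, where Itga3 was at 59.8 TPM, as in the other lines. In Itga6 the A exon took 48.8%, 49.3% and 48.8% (48.9 ± 0.28%), but 62.7 ± 0.33% from estimated counts. Here the B junction came from Itga6-203 (110, 119 and 132 TPM), a transcript of 3 exons with no annotated protein. Of its 2721 bases, 1658 lie past the 3′ end of Itga6-201, and 62.3% of its 31-base words occur in no other listed transcript. Whether the reads of that 3′ end belong to the A or the B form was not tested. The full-length B transcript, Itga6-202, was listed at 0 TPM in every line. In Itgb1 the D exon took 1.42%, 3.28% and 2.38% (2.36 ± 0.93%), from 100.4, 224 and 171 estimated counts of the partial transcript Itgb1-204. From estimated counts, with no correction for its short length, the share was 0.322 ± 0.129%.

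**Figure D4:**
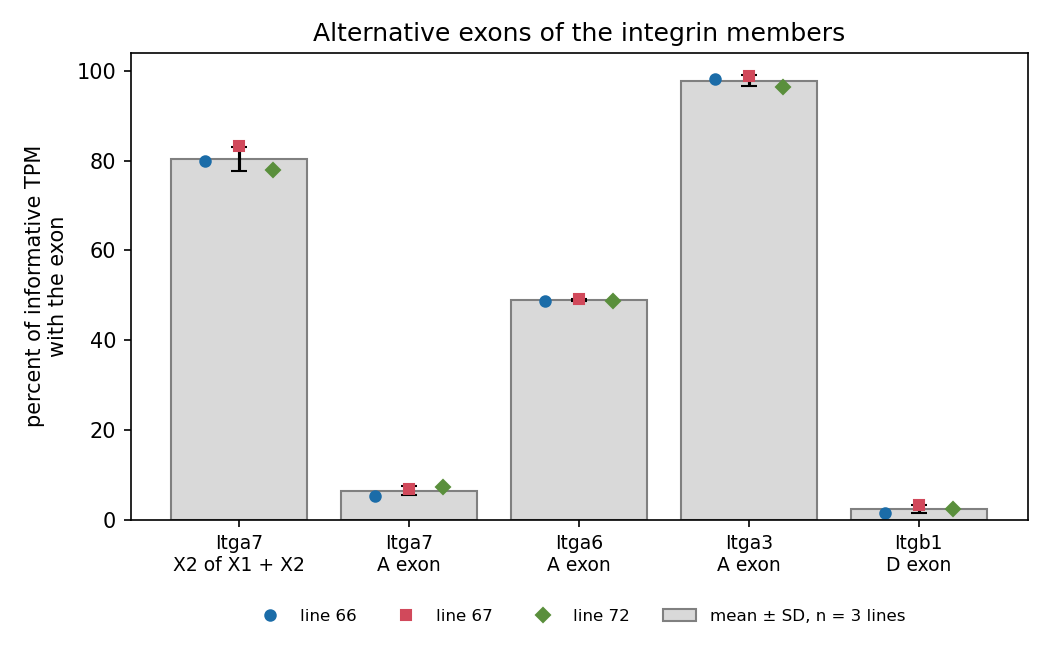
Percent of the TPM of informative transcripts that hold the named exon, with bars for the mean ± SD of the 3 lines and 1 symbol per line; the first bar is X2 over X1 and X2, the others are the exon over transcripts that hold or skip it. The A exon is at 6.45% in Itga7, 48.9% in Itga6 and 97.8% in Itga3.

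The other genes were also read by transcript, since short listed transcripts can hold a large TPM on few reads. Itgb1 was the simplest, with 94.9 ± 1.56% of its TPM in Itgb1-201, the common form. In Lama5 the full-length transcript Lama5-201 had 11.98, 22.6 and 14.98 TPM and took 97.5%, 96.5% and 96.8% of the estimated counts but 57.7%, 49.6% and 52.9% of the TPM. The rest was carried by processed transcripts of 734 and 451 bases (Lama5-203 and Lama5-202), of which the latter had 4.64, 10.7 and 5.84 TPM from 75.4, 161 and 90.3 estimated counts. Line 67 was the highest for each of these Lama5 transcripts. Lamb2 was alike, with 54.2 ± 2.14% of its TPM but 95.0 ± 0.39% of its counts in Lamb2-201. In Lamc1, Lamc1-201 took 69.3 ± 1.68% of the TPM and a partial transcript marked for nonsense-mediated decay, Lamc1-205, 29.2 ± 1.71%. Lama2-201 took 67.8 ± 0.26% of its gene, followed by the partial Lama2-208 with 18.6 ± 1.65%. Lamb1-201 had 101, 88.7 and 59.3 TPM, and Lamb1-205, of which 59 bases lie outside its exons, 23.8, 14.96 and 22.2 TPM. Only 2.62% and 1.59% of the 31-base words of these transcripts occur in no other listed transcript, so the split between them rests on little sequence. For Itga3, Itga3-201 and Itga3-202 took 52.8 ± 1.72% and 28.6 ± 2.32%.

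Since TPM depends on effective length, the order was also read from counts per kilobase of the longest complete coding transcript. The effective length of Itga7-201 was 4787 to 4861 bases, above its 4013 annotated bases, and that of Itgb1-201 was 3131 to 3199 bases, below its 3815. On counts per kilobase, scaled to 1000000 counts a library, Itga7 had 198, 174 and 186 and Itgb1 188, 195 and 194.5, so that these genes overlapped and Itga7 was above Itgb1 in line 66. Itga6 and Lamb1 did not overlap on that scale, and they did from complete coding transcripts. Itgb1, Itga7, Itga6 and Lamb1 were the 4 highest genes on each of these scales, and Lama4 the lowest.

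The other laminin chains read here were low. None of 4 (Lama1, Lama3, Lamb3, Lamc3) had 10 TPM in every line, and Lama1, Lama3 and Lamc3 were below 1 TPM in all of them, with 5 to 27 estimated counts. Lamb3, a beta chain known from the epithelium of the skin, had 5.25, 5.32 and 5.37 TPM, and the lines lay within 1.02-fold of each other. It was below Lamb1 and Lamb2 in each line and took 3.26 ± 0.47% of the TPM of the 3 beta chain genes (SD, n = 3).

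Among other integrins, Itgb4, the alternative partner of Itga6 (chromosome 11), had 76.4, 24.6 and 63.1 TPM. It was low in line 67, 3.10-fold between the ends. It equalled 21.8%, 6.61% and 16.4% of Itgb1, and 35.2%, 10.4% and 24.3% of Itga6. From complete coding transcripts it was 62.7%, 18.5% and 40.7% of Itga6. Its log2 ratio of line 67 to the other lines was -1.45, where chromosome 11 had a median of -0.19. Rgs5 and the sum of the pericyte list were also highest in line 66 and lowest in line 67, while Cspg4 was highest in line 67. Their part in the level of Itgb4 was not tested. Itgb6 and Itgb5 had mean levels of 11.98 and 11.2 TPM, and Itgb2, Itgb3 and Itgb7 were below 1 TPM in every line. Of 9 other alpha partners of beta1, only Itgav (53.1, 53.9 and 66.7 TPM) and Itga5 (24.7, 23.7 and 29.6 TPM), which bind fibronectin and related ligands, had at least 10 TPM in every line. The next was Itga4, with a mean of 6.39 TPM. Itga1, Itga2, Itga8, Itga10 and Itga11 were below 1 TPM. Itga7 and Itga6 were each higher in every line than Itga3 and these 9 alpha subunits.

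Of 3 other laminin receptors, Dag1, which encodes dystroglycan, had 68.6, 77.5 and 81.9 TPM, Mcam 16.8 ± 2.37 TPM and Bcam, a receptor of the alpha5 chain, 10.9 ± 3.70 TPM (SD, n = 3). Itga7 was above Dag1 in each line. All 5 tetraspanins listed as integrin partners had at least 10 TPM in every line, with Cd63 (1528 ± 237), Cd81 (399.7 ± 26.1) and Cd151 (168 ± 3.54 TPM) the highest. Cd151, a direct partner of the laminin-binding integrins, lay within 1.04-fold over the lines.

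Of 17 basement membrane partners, 11 had at least 10 TPM in every line and 1 of these 11 was over 2-fold apart, against 2.47% of all genes that passed the filter. Sparc (472 ± 74.6), Col18a1 (379.6 ± 51.7) and Npnt (346 ± 95.3 TPM, SD, n = 3), a ligand of integrin alpha8beta1, were the highest. The gene over 2-fold apart was Ntn4, a netrin that binds laminin gamma chains, with 86.8, 41.9 and 54.0 TPM. It lies on chromosome 10, and its log2 ratio in line 66 was 0.90 where that chromosome had 0.28. Rgs5 and the sum of the pericyte list had the same order of lines as Ntn4, while Cspg4 was lowest in line 66. Their part in the level of Ntn4 was not tested. Col4a3, Col4a4 and Col4a6, type IV collagen chains of specialised basement membranes, were below 1 TPM in every line. Of 20 genes of the cytoplasmic adhesion complex, which ties integrins to actin, 16 had at least 10 TPM in every line and none of the 16 was over 2-fold apart, a share near the background of 2.47%. Zyx (492 ± 78.4), Flna (464 ± 12.9) and Vcl (182 ± 13.0 TPM) were the highest. Fermt1, Fermt3, Parvg and Lims2, forms of kindlin, parvin and PINCH other than the common ones, were below 1 TPM.

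**Figure D5:**
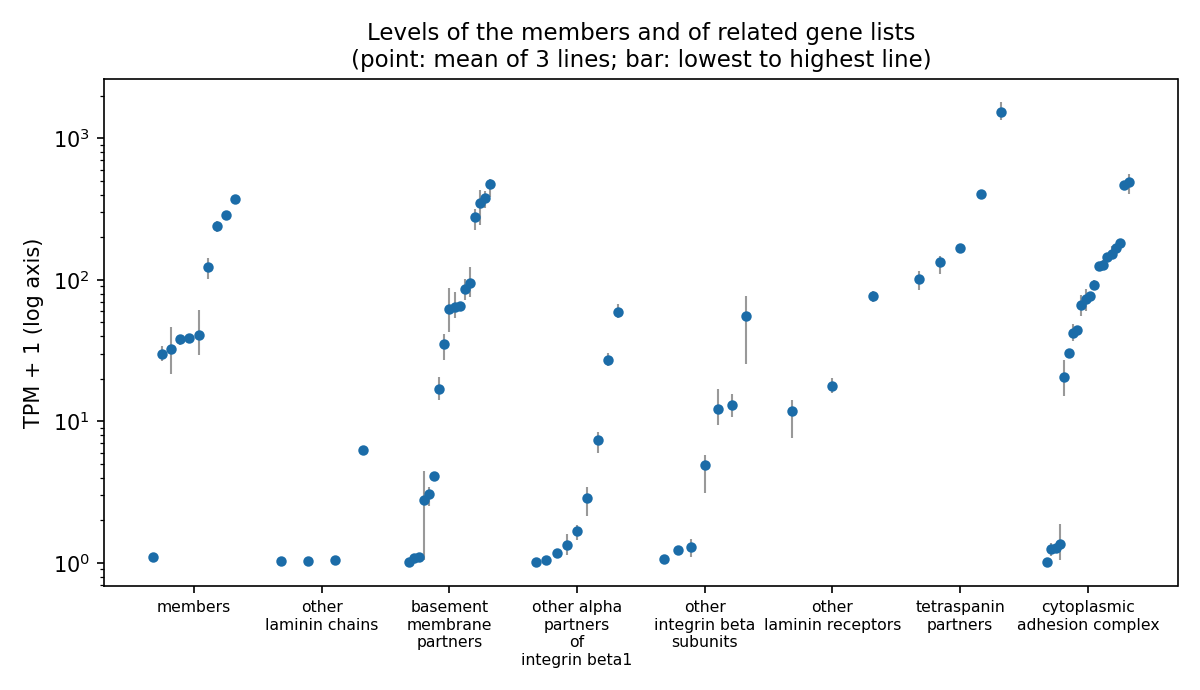
TPM + 1 (log axis) of each gene of the 10 described here and of 7 related lists, with a point at the mean of the 3 lines and a bar from the lowest to the highest line. The other laminin chains all lie below 10 TPM, while the 5 tetraspanins lie above it.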

How the data were processed

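For each of 3 lines the authors deposited, per transcript, an estimated count and a TPM value (scaled to 1000000 per library). Per the labels' processing notes, bcl2fastq 2.20, fastp 0.20 and kallisto 0.46.1 were used with GRCm39. Deposited values were not normalized further. The strand setting and annotation release are not given in the sources used here. Transcripts were matched by identifier to GENCODE M21 (GRCm38), which gave symbols and coordinates: 1059 of 121798 had no match (0.471% to 0.511% of counts) and were left out. All 61 transcripts of the 10 genes matched, with equal lengths. TPM and counts were summed per gene symbol. A transcript holds an exon if it has its splice acceptor, and skips it if it joins the flanking exons. At least 96.5% of the 31-base words of each gene occurred in no other gene.

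The members and lists were chosen with earlier results of these data known. In addition, 1 gene was removed from the lists and is not reported here. The rule for naming covered the 10 genes, the transcripts of Itga7, transcripts with at least 10% of a gene's TPM, and per list the 3 highest genes, those over 2-fold apart (mean of at least 10 TPM) and those below 1 TPM. Some transcripts and marker genes that met this rule are not named. Some transcripts that tell the alternative exons apart are named at a smaller share. There is 1 group, so no test was run, and SDs measure the spread between lines only, which the labels do not tie to separate animals. Depth was 66972426 to 73274315 counts, and limits cover counting error only. For TMM (edgeR 4.0.16) and DESeq2 1.42.0 size factors, counts were rounded to whole numbers. Python 3.11.15, pandas 2.3.3, numpy 2.4.6, matplotlib 3.10.9 and R 4.3.3 were used.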

Additional observations from a re-analysis of the deposited data

How the results depend on the processing

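No paired analysis was possible because the 3 lines form a single group. The 2 genes over 2-fold apart, Itga3 and Lama5, became 1 under several settings. Itga3 alone was called with TMM-scaled counts, DESeq2 size factors and protein-coding transcripts, and, chosen after seeing the data, with complete coding transcripts and counts per kilobase (1 each). Lama5 alone was called relative to the chromosome median (1). With each line left out, 0 to 2 were called: none without line 66 (Itga3 1.07-fold, Lama5 1.61-fold) or without line 67 (1.96-fold and 1.37-fold), and both without line 72. Over all genes, 208 were called, against 898 with a mean of at least 1 TPM, 5498 with no filter, 822 at 1.5-fold, and 92 to 124 with a line left out. With no filter Lama4 was called too, on 15 to 20 counts a line, though from its complete coding transcript alone the lines were 1.57-fold apart. The share of Itga7-201 was 61.7% of TPM, 74.3% of estimated counts and 75.2% of protein-coding TPM (60.8% to 62.4% with a line left out). That of Itga6-201 was 47.5%, 61.7% and 98.1%, since Itga6-203 is not annotated as coding (47.4% to 47.6%). The number of resolved pairs fell from 5 to 3 on CPM, which is not corrected for length (chosen after seeing the data), and was 5 or 6 in the other settings run. The number of genes at 10 or more in every line (9) stayed within 1.5 times, and the ratio of Lamb1 and Lamb2 to Lamc1 (4.35) within 1 SD, in the settings run for them.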
